A study of Mus musculus with 14 samples.

Results

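The interaction described here is the difference between the genotype effects seen after 2 ways of eliciting peritoneal macrophages. For each probe it was computed as nematode wild type minus nematode IL4 receptor KO, less thioglycollate wild type minus thioglycollate IL4 receptor KO, on the log2 scale. It was fitted for all 343 probes named for mouse miRNAs, of 1309 probes named for any miRNA, and it used all 14 arrays of the study. A positive value means that wild type exceeded IL4 receptor KO by more after the nematode than after thioglycollate.

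All cells came from BALB/c mice, either wild type or IL4 receptor KO, and each array measured total RNA of 1 sample labelled with the single dye Hy3. Thioglycollate macrophages were taken 3 days after an intraperitoneal injection (3 wild type and 3 IL4 receptor KO arrays). Nematode macrophages were taken 21 days after Brugia malayi had been implanted in the peritoneum (4 wild type and 4 IL4 receptor KO arrays), so elicitation and time cannot be told apart. Cells of every group had adhered to plastic for 4 hours and were more than 80% positive for F4/80 and CD11b, which leaves room for other cells. The receptor was missing from the whole animal rather than from macrophages alone. Whether replicates were separate animals is not stated in the labels. The p-values therefore reflect the spread between these samples alone.

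The IL-4 receptor passes the signals of IL-4 and IL-13 through STAT6, and in macrophages it drives the alternatively activated state seen in worm infections. Thioglycollate is a sterile irritant that draws inflammatory macrophages into the peritoneum. MicroRNAs are short RNAs that lower the output of target mRNAs, and the seed, bases 2 to 8 from the 5′ end, guides the pairing. miR-378, which the array calls miR-422b, was linked to IL-4 signalling in macrophages by this study.

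The arrays differed in how many of the 343 probes could be measured. Between 33 and 267 probes stood above the 95th percentile of their array's blank and negative control spots, and 208 did so on at least 3 arrays. By array, this percentile was 12.6 to 111 intensity units. Nematode wild type replicate 4 had the lowest number of such probes, and it correlated at 0.835 with the mean of the rest of its group, where the other 13 arrays gave 0.936 to 0.977. Slide 12 held 1 array of each thioglycollate genotype and every other slide held 1 group, so slide and group cannot be told apart elsewhere. No slide held both elicitations, so the interaction could not be computed within a slide. The arrays carry no probe for the receptor's mRNA or for the sorting markers, so genotype and cell type could not be checked on defining genes.

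The mature sequences of the miRNAs that the results turn on are shown first, grouped by seed, so that the values of miRNAs with the same seed can be set side by side. They are from RefSeq (GRCm38.p6), 5′ to 3′, with the seed in capitals. The first set holds miR-34a, which passed the test, with miR-34b and miR-449, which share its seed and were not above blank spots on most arrays. miR-34a lies at chr4:150068473-150068494 on the plus strand.
miR-34a: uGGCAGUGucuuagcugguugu
miR-34b: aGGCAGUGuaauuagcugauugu
miR-449: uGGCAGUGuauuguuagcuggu

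The second set holds the miR-125 seed and the miR-99 and miR-100 seed, whose genes, except that of miR-351, lie in 3 clusters. Those of miR-99a (chr16:77598940-77598961, plus strand) and miR-100 (chr9:41531437-41531458, plus strand) each lie near a copy of the miR-125b gene. The gene of miR-99b (chr17:17830194-17830215, plus strand) lies next to that of miR-125a.
miR-125b: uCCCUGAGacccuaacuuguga
miR-125a: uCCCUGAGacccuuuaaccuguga
miR-351: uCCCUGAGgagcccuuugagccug
miR-99a: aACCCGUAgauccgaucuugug
miR-100: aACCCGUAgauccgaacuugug
miR-99b: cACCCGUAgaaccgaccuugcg

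The third set holds miR-223, with the largest interaction among myeloid miRNAs, and the pair that the array calls miR-146 and miR-146b, with miR-20a as the strongest negative value of the miR-17 seed. miR-223 lies at chrX:96242884-96242905 on the plus strand and miR-146 at chr11:43374435-43374456 on the minus strand.
miR-223: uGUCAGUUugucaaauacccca
miR-146: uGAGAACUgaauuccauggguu
miR-146b: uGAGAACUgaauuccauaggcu
miR-20a: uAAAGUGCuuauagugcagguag

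Over all 343 probes the genotype effect differed between the elicitations for 2 miRNAs, miR-422b and miR-34a, both with positive values (0.583% of probes, limma with Benjamini-Hochberg adjustment over the 343 probes, threshold 0.05). They came about in different ways: miR-422b was high in nematode wild type cells and miR-34a was high in thioglycollate IL4 receptor KO cells. No probe passed with a negative value, while 12 negative and 11 positive probes had an unadjusted p under 0.05 (6.71% of probes together). The count depended on the processing. Under median scaling or no normalization, 3 probes passed with positive and 1 with negative values, and with array weights 7 and 3 did. It was 0 in limma with no background correction (17 at an unadjusted p under 0.05) and with plain subtraction or the deposited value table, which hold the same values (23 each). It was also 0 when any 1 of 5 arrays was left out (16 to 26).

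The interaction values were centred on 0. Of the 343, 170 were positive and 173 negative, with a median of -0.00, and they ran from -1.79 for miR-689 to 1.82 for miR-422b. Only 7 probes (2.04%) exceeded 1 in size. The genotype difference had opposite signs after the 2 elicitations for 145 probes (42.3%).

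The precision of a difference of differences limited what could be seen. The median standard error was 0.19 for the interaction, against 0.13 for the genotype difference after the nematode and 0.15 for that after thioglycollate. The median unadjusted 95% confidence interval reached 0.42 to either side of its value. The adjusted threshold asked for more than that: miR-150, at -0.84 with a standard error of 0.19, did not pass it. The standard error rose with brightness, from a median of 0.14 among the 115 dimmest probes to 0.29 among the 114 brightest. The dim probes showed both small errors and small differences. An added offset compresses dim values, but its part in this was not tested.

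**Figure D1:**
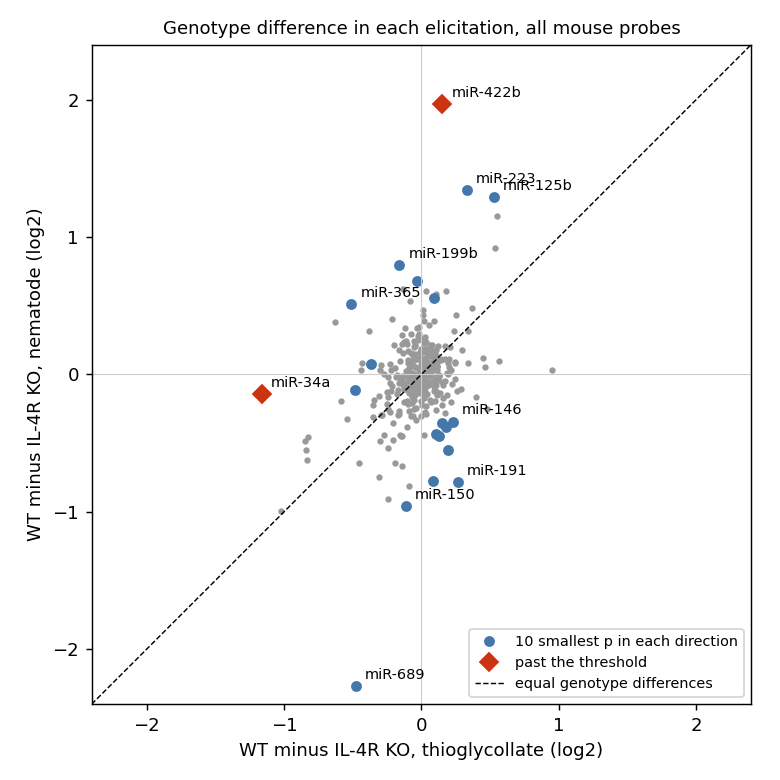
Each point is 1 of 343 mouse miRNA probes, with its wild type minus IL4 receptor KO difference (log2) after thioglycollate on the x axis and after the nematode on the y axis. The interaction is the vertical distance from the dashed line of equal differences; miR-422b lies 1.82 above it and miR-34a 1.02 above it (red diamonds), and the blue circles are the 10 smallest p in each direction.

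miR-422b showed a genotype difference after the nematode that was not seen after thioglycollate. In nematode wild type cells its normalized log2 intensity was 8.55, 8.85, 9.25 and 9.78. In nematode IL4 receptor KO cells it was 7.26, 6.92, 7.12 and 7.26. The groups did not overlap, and every nematode wild type array was also above every thioglycollate array. Such a gap was seen for 9.04% of probes between the nematode genotypes and for 7.87% between the elicitations in wild type cells.

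After thioglycollate the levels of miR-422b overlapped between genotypes. They were 7.46, 7.10 and 7.23 in wild type cells and 7.38, 6.83 and 7.13 in IL4 receptor KO cells. The 3 groups other than nematode wild type thus lay within the same range, from 6.83 to 7.46. On the linear scale before normalization, net signal of miR-422b averaged 472 ± 109 (SD, n = 4) intensity units in nematode wild type cells. It averaged 104 ± 11.9 (SD, n = 4) in nematode IL4 receptor KO, 79.1 ± 35.7 (SD, n = 3) in thioglycollate wild type and 90.4 ± 18.3 (SD, n = 3) in thioglycollate IL4 receptor KO cells.

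The interaction of miR-422b was 1.82 (SE 0.33, 95% confidence interval 1.09 to 2.54, limma adjusted p = 0.0224). The call was lost in 8 of the 14 fits that left out 1 array (adjusted p 0.0503 to 0.088), namely without thioglycollate wild type replicate 2 (interaction 1.75) or 3 (1.80), thioglycollate IL4 receptor KO replicate 1 (1.67) or 3 (1.79), nematode wild type replicate 3 (1.76), or nematode IL4 receptor KO replicate 1 (1.86), 2 (1.77) or 3 (1.79). It was also lost with no background correction (1.04, limma adjusted p = 0.7). As first given, the ratio of wild type to IL4 receptor KO was 3.52 times as large after the nematode as after thioglycollate. The genotype difference itself was 1.97 after the nematode (limma adjusted p = 0.000136) and 0.15 after thioglycollate (SE 0.25, limma adjusted p = 1, 95% confidence interval -0.40 to 0.70). By elicitation, the difference of nematode minus thioglycollate was 1.84 in wild type and 0.03 in IL4 receptor KO cells, where 0.875% and 1.46% of probes passed the threshold. These 4 differences share arrays with the interaction and are not independent of it.

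The probe behaved alike over its spots, and it was measured everywhere. The interaction of miR-422b was 1.73, 1.98 and 1.75 in the 3 spots taken singly, and the probe stood above blank spots on all 14 arrays. On slide 12, the only slide with both genotypes, wild type minus IL4 receptor KO was -0.14. The nematode wild type level of miR-422b differed between slides, with a mean of 9.52 on slide 7 and 8.70 on slide 9. The probe called miR-378 on this array, which is the opposite arm of the same hairpin, had an interaction of 0.32 (SE 0.18, limma adjusted p = 0.904). It exceeded blank spots on 3 arrays. A probe for the human relative miR-422a gave 0.20 (SE 0.12) and also stood above blank spots on 3 arrays.

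**Figure D2:**
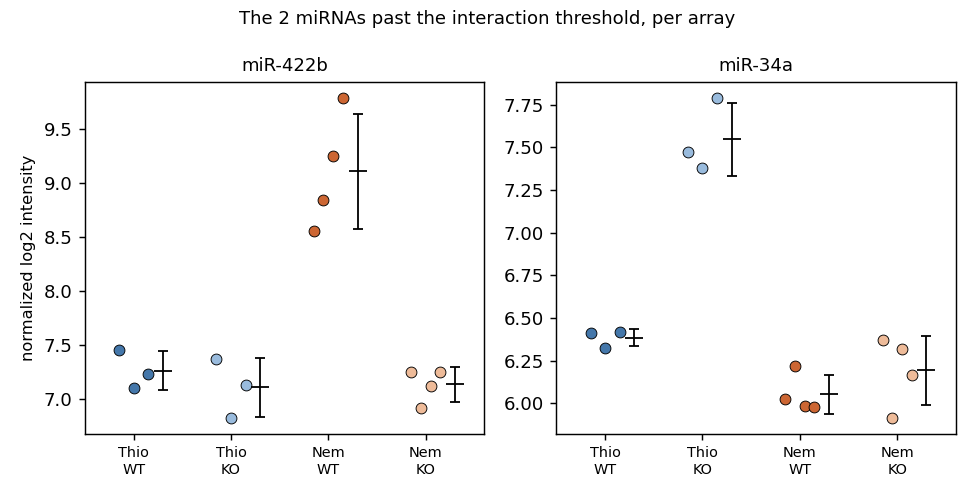
Normalized log2 intensity of miR-422b (left) and miR-34a (right) on each array, by elicitation (Thio, thioglycollate; Nem, nematode) and genotype (WT, wild type; KO, IL4 receptor KO), with mean and SD as bars and 3 or 4 arrays per group. The 4 nematode wild type arrays (8.55 to 9.78) stand apart for miR-422b, and the 3 thioglycollate IL4 receptor KO arrays (7.38 to 7.79) for miR-34a; the y axes differ and do not start at 0.

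miR-34a, a transcriptional target of p53 that restrains proliferation, had its genotype difference after thioglycollate. Its log2 intensity was 7.47, 7.38 and 7.79 in thioglycollate IL4 receptor KO cells and 6.41, 6.33 and 6.42 in thioglycollate wild type cells. In nematode macrophages it was 6.03, 6.22, 5.99 and 5.98 in wild type and 6.37, 5.92, 6.32 and 6.17 in IL4 receptor KO cells. The 3 thioglycollate IL4 receptor KO arrays lay above all the others, and the nematode genotypes overlapped. The thioglycollate genotypes were apart for 11.1% of probes, and the elicitations were apart in IL4 receptor KO cells for 15.7%.

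The interaction of miR-34a was 1.02 (SE 0.17, 95% confidence interval 0.64 to 1.40, limma adjusted p = 0.0224), a ratio of ratios of 2.03. The call was lost in 5 of the 14 fits that left out 1 array (adjusted p 0.0518 to 0.0766), namely without thioglycollate wild type replicate 2 (interaction 1.02) or 3 (1.05), thioglycollate IL4 receptor KO replicate 1 (1.06) or 3 (0.88) or nematode wild type replicate 3 (1.05), and with no background correction (0.72, limma adjusted p = 0.15). Its positive sign here comes from a negative genotype difference after thioglycollate, -1.16 (SE 0.13, limma adjusted p = 0.000339), set against -0.14 (SE 0.11, limma adjusted p = 0.6) after the nematode. miR-34a was thus lower in wild type than in IL4 receptor KO cells after thioglycollate, and its high group was not that of miR-422b. Within IL4 receptor KO cells it was at least 2.28-fold lower after the nematode than after thioglycollate (limma adjusted p = 2.87e-05).

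Much of the miR-34a contrast rests on dim values. It stood above blank spots on 3 of 3 thioglycollate IL4 receptor KO arrays, 1 of 3 thioglycollate wild type, 1 of 4 nematode wild type and 0 of 4 nematode IL4 receptor KO arrays. Its net signal averaged 140 ± 28.1 (SD, n = 3) intensity units in thioglycollate IL4 receptor KO cells and 26.4 ± 4.80 (SD, n = 3) in thioglycollate wild type cells. It averaged 14.7 ± 5.90 (SD, n = 4) and 22.9 ± 11.0 (SD, n = 4) in nematode wild type and IL4 receptor KO cells. A genotype difference after the nematode was therefore hardly measurable at this signal.

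The thioglycollate difference of miR-34a was seen within a slide and in each spot. On slide 12 wild type minus IL4 receptor KO was -1.05, with 6.42 and 7.47. The 3 spots gave interactions of 0.94, 0.95 and 1.18. The related miRNAs of its family and seed had smaller values, on few arrays above blank spots. The interaction was 0.18 for miR-34b (above blank spots on 1 array), 0.10 for miR-34c (2 arrays) and -0.24 for miR-449 (2 arrays).

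The next values did not pass the threshold, and miR-150 came nearest. miR-150, abundant in mature lymphocytes, had log2 intensities of 7.03, 7.03, 7.42 and 7.42 in nematode IL4 receptor KO cells and 6.26, 6.51, 6.34 and 5.97 in nematode wild type cells. In thioglycollate macrophages it was 6.07, 6.06 and 6.18 in wild type and 6.15, 6.33 and 6.17 in IL4 receptor KO cells. The nematode IL4 receptor KO arrays lay above all the others. A gap between the nematode genotypes was seen for 9.04% of probes. The interaction of miR-150 was -0.84 (SE 0.19, limma adjusted p = 0.0935), with genotype differences of -0.96 after the nematode and -0.11 after thioglycollate. It stood above blank spots on 4 of 4 nematode IL4 receptor KO and 2 of 4 nematode wild type arrays, but on 1 of 3 in each thioglycollate group. The thioglycollate difference thus lay mostly at background.

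The call for miR-150 depended on the scaling. It passed under median scaling (-0.99, limma adjusted p = 0.0357), cyclic loess (-1.06, limma adjusted p = 0.00407), no normalization (-0.90, limma adjusted p = 0.0476) and quantile normalization over mouse probes only (-0.91, limma adjusted p = 0.0214). It also passed with array weights, without nematode wild type replicate 2 and without nematode wild type replicate 4. The summed level of the 6 lymphocyte-linked probes, offset included, was 487 to 549 in nematode IL4 receptor KO and 397 to 477 in nematode wild type cells, against 461 to 549 and 454 to 490 in thioglycollate wild type and IL4 receptor KO cells. The other 5 had interactions of -0.39 (miR-342) to 0.17 (miR-181c), and the part of lymphocytes in the result was not tested. In such bulk samples, fewer cells of a type and less RNA per cell cannot be told apart.

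Among the positive values below the threshold, miR-125b and miR-223 stood above blank spots on every array. miR-125b, which promotes an activated state in macrophages, had log2 intensities of 7.65, 7.85, 7.97 and 8.24 in nematode wild type and 6.47, 6.68, 6.70 and 6.70 in nematode IL4 receptor KO cells. In thioglycollate macrophages they were 7.54, 7.85 and 7.39 in wild type and 7.30, 6.93 and 6.97 in IL4 receptor KO cells. Wild type exceeded IL4 receptor KO without overlap in both elicitations, by 1.29 after the nematode and 0.53 after thioglycollate. The genotypes were apart for 9.04% of probes after the nematode and for 11.1% after thioglycollate. The thioglycollate difference did not pass (limma adjusted p = 0.287), and on slide 12 it was 0.09. The interaction of miR-125b was 0.77 (SE 0.21, limma adjusted p = 0.211), and it passed under median scaling (1.15, limma adjusted p = 0.019) and no normalization (1.23, limma adjusted p = 0.0263).

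miR-223, a miRNA of granulocytes and monocytes, gave 10.58, 11.00, 11.00 and 11.38 in nematode wild type and 9.53, 9.78, 9.38 and 9.90 in nematode IL4 receptor KO cells. After thioglycollate it gave 10.72, 10.58 and 10.58 in wild type and 10.72, 10.20 and 9.96 in IL4 receptor KO cells. The genotypes were apart after the nematode, as for 9.04% of probes, and overlapped after thioglycollate. The interaction of miR-223 was 1.01 (SE 0.28, limma adjusted p = 0.211). Equal values such as these come from shared ranks among the brightest probes, which quantile normalization sets to the same level.

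miR-199b, a miRNA of fibroblasts and other stromal cells, varied within its high group. It gave 7.38, 7.07, 6.49 and 6.36 in nematode wild type and 6.04, 5.93, 6.09 and 6.06 in nematode IL4 receptor KO cells. After thioglycollate it ran from 6.00 to 6.38 in wild type and from 6.03 to 6.53 in IL4 receptor KO cells. The interaction of miR-199b was 0.96 (SE 0.30, limma adjusted p = 0.289). It stood above blank spots on 0 of 4 nematode IL4 receptor KO arrays, so wild type was at least 1.42-fold higher there and the fitted value rests on a group at background. The nematode wild type level differed between slides, with a mean of 7.22 on slide 9 and 6.43 on slide 7.

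The stromal list, which holds miR-199b, had values of both signs. Its 14 probes had a median interaction of 0.02, with 7 positive and 7 negative values. Only 7 probes stood above blank spots on at least 3 arrays, and 1 stood below them on all arrays. The dim probes could show little of a shift. Its summed level, offset included, was 992 to 1261 in nematode wild type and 964 to 1086 in nematode IL4 receptor KO cells. After thioglycollate it was 1050 to 1092 in wild type and 1052 to 1099 in IL4 receptor KO cells. The part of stromal cells in the result was not tested.

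**Figure D3:**
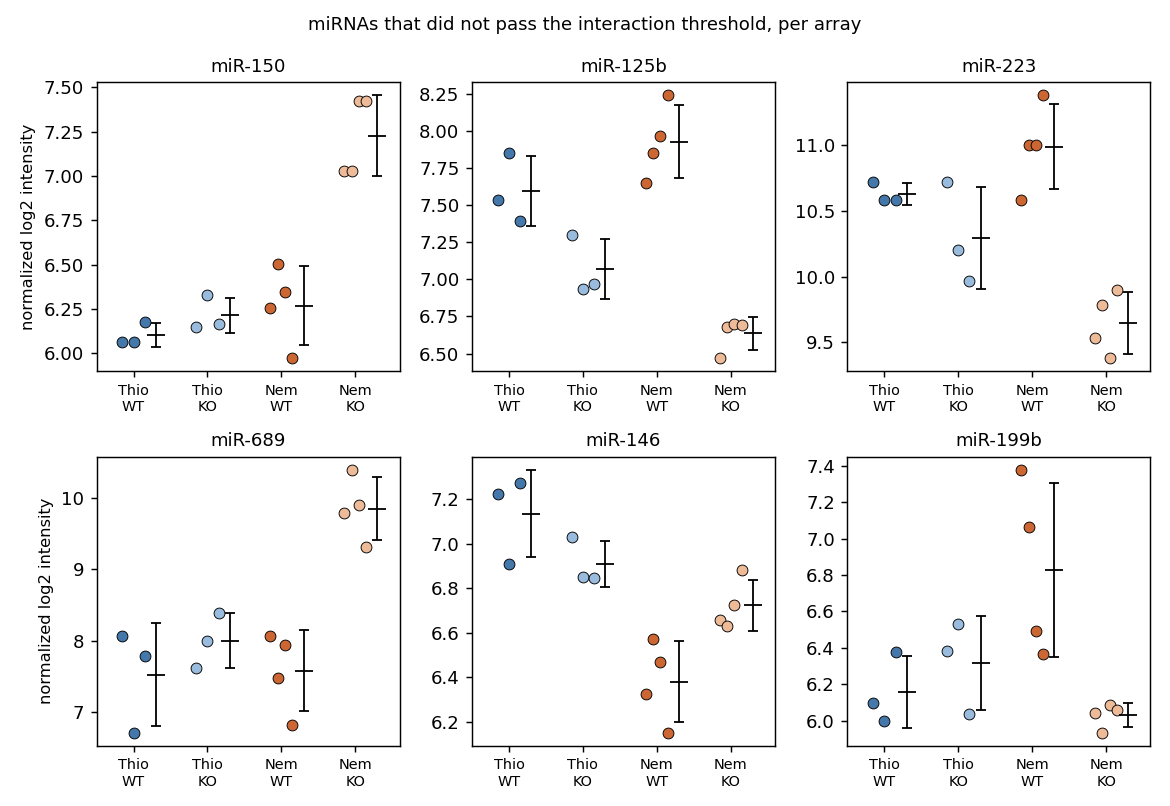
Normalized log2 intensity on each array for 6 miRNAs that did not pass the interaction threshold, drawn as for miR-422b and miR-34a, with mean and SD. Nematode IL4 receptor KO arrays are highest for miR-150 (7.03 to 7.42) and miR-689 (9.31 to 10.39) and lowest for miR-125b (6.47 to 6.70) and miR-223 (9.38 to 9.90).

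miR-99a and miR-100 had values in the same direction as miR-125b, near whose gene copies they are encoded. miR-99a was 6.70, 7.06, 6.84 and 6.03 in nematode wild type cells, of which replicate 4 lay within the range of the other groups (5.87 to 6.22). The interaction was 0.71 (SE 0.27, limma adjusted p = 0.541) for miR-99a and 0.47 (SE 0.21, limma adjusted p = 0.693) for miR-100. Both stood above blank spots on 3 arrays, and on 0 of 4 nematode IL4 receptor KO arrays, where wild type was at least 1.26-fold and 1.12-fold higher. Without nematode wild type replicate 4 they passed, at 0.91 (limma adjusted p = 0.00879) and 0.61 (limma adjusted p = 0.0288).

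The paralogs encoded on chromosome 17 had the opposite sign. The interaction was -0.45 (SE 0.29) for miR-125a and -0.30 (SE 0.15) for miR-99b, with limma adjusted p of 0.904 and 0.832. miR-351, which shares the seed of miR-125b, had 0.29 (SE 0.46). The miR-99, miR-100 and miR-125 list of 6 probes, which includes the clustered let-7c (0.37, SE 0.39), had a median interaction of 0.42, beside -0.00 over all 343, with 4 positive values, 3 of them at an unadjusted p under 0.05, where 6.71% of all probes were, and 0 past the threshold.

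miR-365 reached 1.02, as large as miR-34a, with a larger error (SE 0.41, limma adjusted p = 0.633). In nematode wild type cells it gave 7.35, 7.46, 6.94 and 6.05, and replicate 4 was again the low array. Without that array the interaction of miR-365 was 1.33 (limma adjusted p = 0.0306). The remaining 2 of the 10 positive values, miR-718 (0.44) and miR-702 (0.37), were highest in thioglycollate IL4 receptor KO cells, as miR-34a was. Both were dim, above blank spots on 5 and 6 arrays, and neither passed (limma adjusted p = 0.553 and 0.67).

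The negative value largest in size was that of miR-689. It gave 9.78, 10.39, 9.90 and 9.31 in nematode IL4 receptor KO cells and 8.07, 7.47, 7.94 and 6.82 in nematode wild type cells. After thioglycollate it gave 8.07, 6.71 and 7.79 in wild type and 7.62, 7.99 and 8.39 in IL4 receptor KO cells. The nematode IL4 receptor KO arrays lay above the other 10, while the spread in the other groups was wide. The nematode genotypes were apart for 9.04% of probes. The interaction of miR-689 was -1.79 (SE 0.52, limma adjusted p = 0.217).

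miR-146, which NF-kB turns on and which dampens Toll-like receptor signals, had genotype differences of opposite sign, neither of which passed the threshold. The difference was -0.34 after the nematode (SE 0.11, limma adjusted p = 0.172). After thioglycollate it was 0.23 (SE 0.13, 95% confidence interval -0.05 to 0.50). miR-146 stood above blank spots on 2 of 4 nematode wild type arrays. It gave 6.33, 6.57, 6.47 and 6.15 in nematode wild type and 6.65, 6.63, 6.73 and 6.88 in nematode IL4 receptor KO cells. After thioglycollate it gave 7.22, 6.91 and 7.27 in wild type and 7.03, 6.85 and 6.84 in IL4 receptor KO cells, and the ranges overlapped. The interaction of miR-146 was -0.57 (SE 0.17, limma adjusted p = 0.217), and that of miR-146b, of the same seed, was -0.16 (SE 0.52).

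miR-191 had the next largest negative value, -1.05 (SE 0.43, limma adjusted p = 0.638). In nematode wild type cells it gave 8.24, 8.68, 8.17 and 6.97, so a single array, replicate 4, carried much of the spread. Replicate 4 was also the highest of its group for miR-422b, miR-125b and miR-223. It was the lowest for miR-150, miR-689 and miR-146. Without it the interaction was smaller in size for miR-422b (1.66) and miR-150 (-0.77), and larger for miR-99a (0.91) and miR-365 (1.33). The other negative values among the 10 smallest p were miR-292-5p (-0.86), miR-682 (-0.57), miR-714 (-0.57), the shared probe of miR-291a-5p and miR-291b-5p (-0.54) and miR-551b (-0.50). miR-551b stood above blank spots on 1 array.

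The miR-17 seed, found in the miR-17-92 cluster that promotes cell growth and in its paralogs, was measured by 7 probes, 2 of them for miR-20a. The values ran from -0.74 to 0.06, with 5 negative and 2 positive, where 173 of all 343 were negative, and 0 passed. Those of miR-93 (-0.06), miR-20b (0.04) and miR-106a (0.06) lay near 0. The lowest was 1 of 2 probes named for miR-20a, at -0.74 (SE 0.26, limma adjusted p = 0.421), and the other miR-20a probe gave -0.31 (SE 0.34). Both are named for the same mouse miRNA, and whether the probes differ was not tested.

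**Figure D4:**
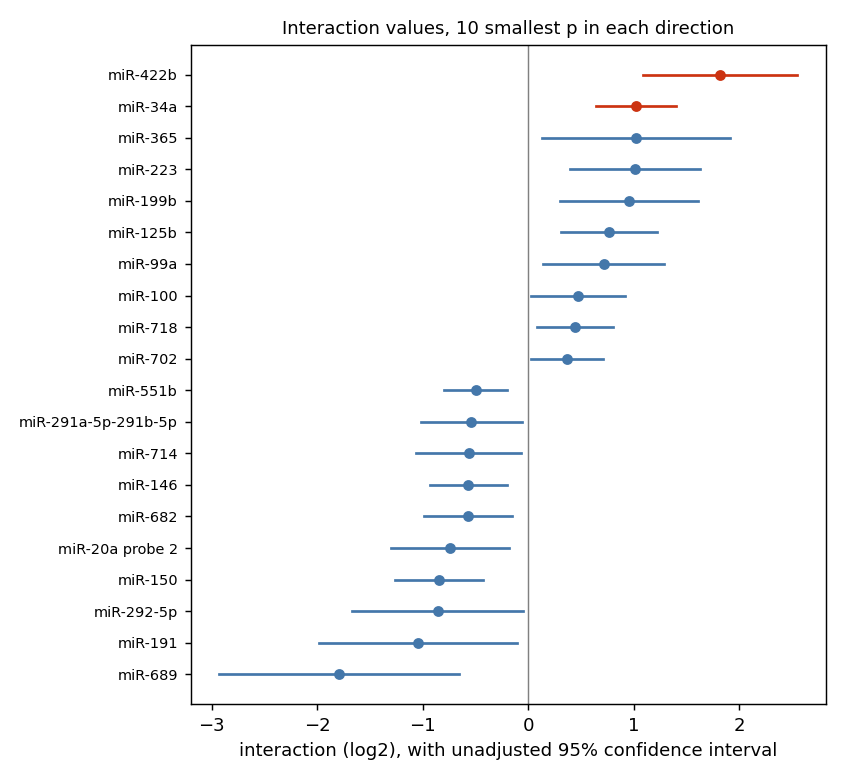
Interaction values (log2, points) with unadjusted 95% confidence intervals (lines) for the 10 positive and 10 negative probes with the smallest p; chosen for that, all intervals exclude 0. The 2 red probes passed the adjusted threshold, with intervals of 1.09 to 2.54 for miR-422b and 0.64 to 1.40 for miR-34a; the widest of the 20 is that of miR-689 (-2.93 to -0.66).

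For the 20 probes of smallest p, of which 2 passed, the group that stood apart was most often a nematode group. For the 2 that passed it was nematode wild type (miR-422b) and thioglycollate IL4 receptor KO (miR-34a). Among the 20 probes just listed, the group mean farthest from the mean of the other 3 was nematode wild type or nematode IL4 receptor KO for 17 (85%), against 215 of all 343 probes (62.7%). For the 10 positive probes nematode wild type was farthest above in 5, thioglycollate IL4 receptor KO farthest above in 3 and nematode IL4 receptor KO farthest below in 2. For the 10 negative probes nematode IL4 receptor KO was farthest above in 7 and nematode wild type farthest below in 3. Thioglycollate wild type was the farthest group for none of the 20. The 20 were picked on the interaction, so these counts are a description.

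The signs of the genotype differences show the same variety. Of the 20, 12 had opposite signs in the elicitations, against 145 of all 343 probes (42.3%). The 20 were picked on the interaction, which favours opposite signs. Another 6 had the same sign and a larger difference after the nematode, and 2 had the same sign and a larger one after thioglycollate. The genotype comparisons had 6 called probes (1.75%) after the nematode and 1 (0.292%), miR-34a, after thioglycollate. Whether those counts differ is not shown by the counts, and for all but 2 probes the interaction did not pass.

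Inflammatory miRNAs had interaction values of both signs. Of the 9 probes of the inflammatory and NF-kB list 0 passed, 1 (miR-146) had an unadjusted p under 0.05, 3 were positive and 6 negative, and the median was -0.12, beside -0.00 over all 343. miR-155, a product of inflammatory activation, had -0.38 (SE 0.35), and miR-222 and miR-221, from 1 cluster, had 0.42 (SE 0.32) and -0.13 (SE 0.42). For miR-221 the sign turned under median scaling (0.38), cyclic loess (0.33) and no normalization (0.46), where the median of all probes was 0.06, 0.03 and 0.14. miR-21 held the top rank on all 6 thioglycollate arrays, so its difference there is 0 by construction and its interaction of -0.06 rests on the nematode arrays alone.

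The myeloid and haematopoietic list had 15 probes with a median of -0.17, of which 0 passed and 2 (miR-223 and the miR-20a probe named above) had an unadjusted p under 0.05. miR-142-3p, a marker of blood cells, had -0.66 with a standard error of 0.71. The list of miR-17-92 and its paralogs had 13 probes with a median of -0.22, of which 0 passed and 2 had an unadjusted p under 0.05. Its lowest member was miR-92 (-0.92, SE 0.78), whose value rested on 1 array: without thioglycollate wild type replicate 2 it was 0.13. The mean of its spots gave 9.13 on that array, although by their median it stood above blank spots on 0 of 3 thioglycollate wild type arrays.

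The IL-4 receptor linked list held 2 probes, miR-422b and its opposite arm, with a median of 1.07 and 1 past the threshold. The miR-34 and p53-linked list held 7 probes with a median of 0.10, of which only miR-34a passed. Each of these calls is the single miRNA already described. Both lists were drawn up with that known, and the link of miR-378 to the receptor was itself drawn by the study from these samples, so it is not independent evidence.

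The other lists had no probe past the threshold. Medians were 0.03 for let-7 (9 probes), -0.08 for miR-15 and miR-16 (7), -0.10 for miR-30 (7), 0.08 for miR-26, miR-29 and miR-101 (7) and -0.18 for the lymphocyte list (6). Among markers of other cells, medians were -0.04 for erythroid (3 probes), 0.13 for endothelial (2), -0.01 for epithelial (11) and 0.03 for muscle and liver miRNAs (6). Only 1 erythroid, 1 endothelial, 4 epithelial and 3 muscle and liver probes stood above blank spots on at least 3 arrays. The rest lay mostly at background, so these medians say little about such cells. miR-210, the hypoxia miRNA, had -0.01. Of these only the lymphocyte list held a probe with an unadjusted p under 0.05, miR-150.

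Probes named only for miRNAs of other species were read under the same contrast. Of 966 such probes, 3 (0.311%) exceeded 1 in size, against 2.04% of the mouse probes, and 3.11% had an unadjusted p under 0.05, against 6.71%. Many of them lie below blank spots, and only 358 stood above them on at least 3 arrays. With all 1309 probes fitted and adjusted together, 0 passed in limma, while 23 mouse probes had an unadjusted p under 0.05. The adjusted p was then 0.0871 for miR-422b and 0.0711 for miR-34a.

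The direction of both called miRNAs held under every log2 setting tried, and the calls did not. The interaction of miR-422b ran from 1.04 to 2.27 and that of miR-34a from 0.72 to 1.68 over the settings other than leaving out an array. Leaving out an array in turn gave 1.66 to 2.00 for miR-422b and 0.88 to 1.10 for miR-34a. Neither passed without thioglycollate wild type replicate 2 or 3, thioglycollate IL4 receptor KO replicate 1 or 3, or nematode wild type replicate 3, where 0 probes passed in limma, 16 to 26 had an unadjusted p under 0.05, and the adjusted p of the pair was 0.0518 to 0.088. Without nematode IL4 receptor KO replicate 1, 2 or 3, 1 probe passed, miR-34a. Without nematode wild type replicate 4, 7 passed.

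**Figure D5:**
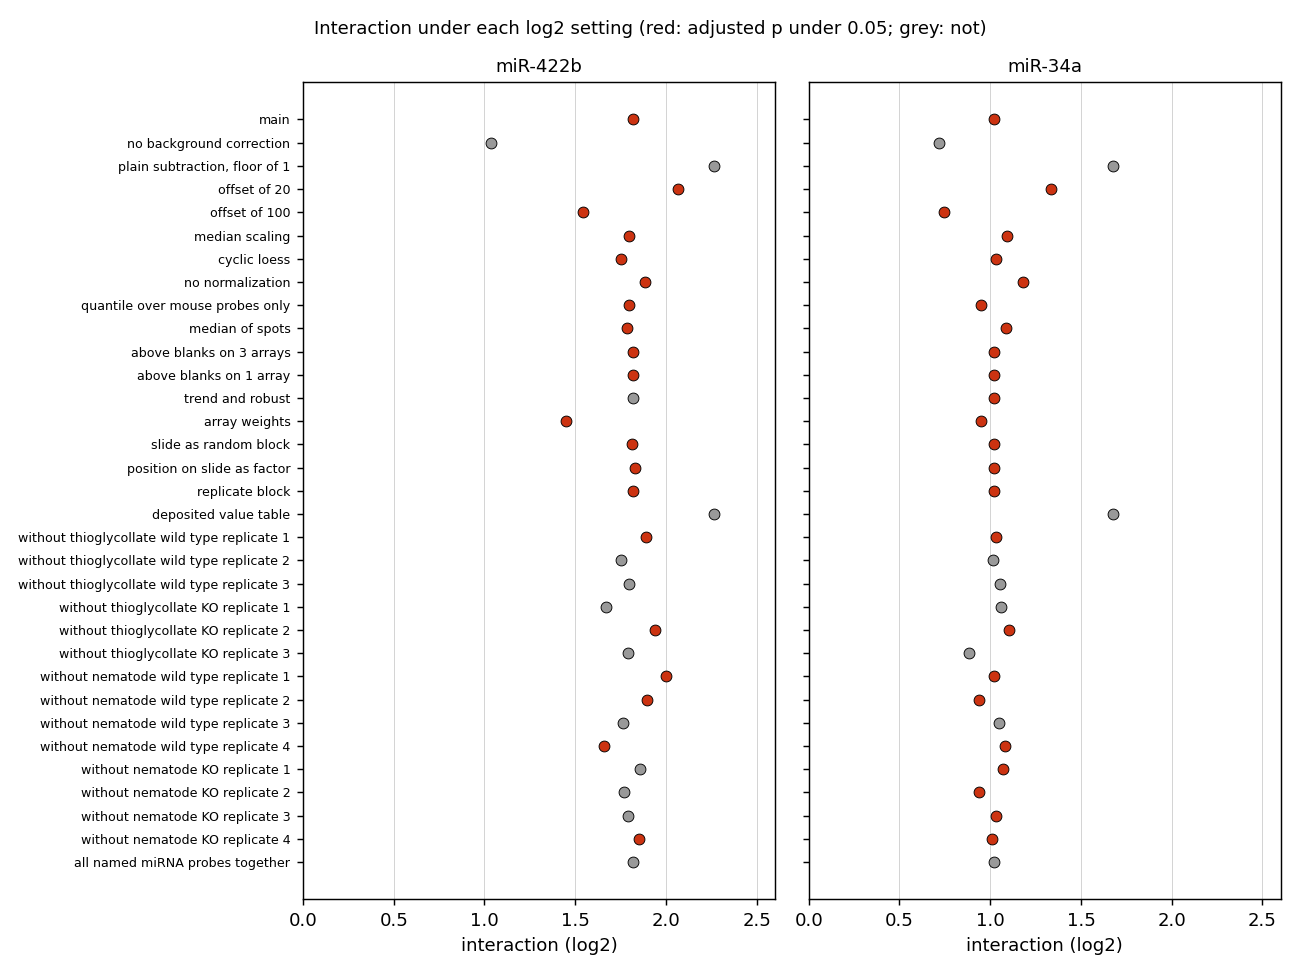
Interaction (log2, x axis) of miR-422b and miR-34a under each processing setting on the log2 scale and with each array left out (rows), red where the limma adjusted p was under 0.05. All points lie above 0, from 1.04 to 2.27 for miR-422b and from 0.72 to 1.68 for miR-34a, while many are grey.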

How the data were processed

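MicroRNA was measured on 14 single-colour miRCURY LNA arrays, grouped by the elicitation and genotype in the labels. Per the file headers, the deposited slide files hold each spot's foreground and background intensity on a linear scale, without subtraction or normalization by the authors. The authors' deposited value table equalled foreground minus background intensity within 0.001. No aligner or build applies.

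Analysis used R 4.3.3 and limma 3.58.1. Intensities were normexp corrected (offset 50) and log2 transformed, each probe's 3 spots were averaged, and quantile normalization ran over the 1309 probes named for any miRNA. The model had 1 mean per group over all 14 arrays (lmFit, eBayes, two-sided moderated test), with Benjamini-Hochberg adjustment over 343 mouse probes and a threshold of 0.05. The number of arrays limits the precision. The contrast code was tested on simulated data.

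A miRNA below blank spots on every array of a group has only a bound there, and its fold is "at least" the bright group's mean over the mean of that bound. Named were the probes past the threshold, the 10 positive and 10 negative values of smallest p, 14 fixed miRNAs, and each list's extremes. The contrast and the lists were chosen with earlier results of these data known. Deviations from the group means in same-numbered samples of different groups correlated at -0.24 to 0.32 over 19 pairs, 5 over 0.1. Samples with different numbers were not compared in this way, so whether numbers pair samples is not settled. The main model did not pair them.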

Additional observations from a re-analysis of the deposited data

Results flagged for a closer look

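The interaction test itself marks miR-422b (1.82) and miR-34a (1.02), whose genotype differences differed between the elicitations.

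Of 102 nematode groups examined (51 named miRNAs in each genotype), 5 held an array far from the other 3, where about 1 in 20 would by chance. In nematode IL4 receptor KO cells, miR-125b was 6.47 in replicate 1 against 6.68 to 6.70 in the others, and miR-720 was 10.58 in replicate 3 against a tied 10.72. In nematode wild type cells, miR-181c was 6.46 in replicate 1 against 6.04 to 6.07, miR-141 was 6.36 in replicate 3 against 6.11 to 6.13, and miR-208 was 6.56 in replicate 4 against 5.99 to 6.05. Replicate 4 also had the highest 95th percentile of blank spots, 111 intensity units.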

How the results depend on the processing

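With 3 or 4 arrays per group and many probes near blank spots, the counts moved with the settings more than the values did. The count of 2 became 0 with no background correction, with plain subtraction and in the deposited value table (17, 23 and 23 probes at an unadjusted p under 0.05 in limma), 4 under median scaling and no normalization, 1 on the linear scale and with a trended robust prior, and 10 with array weights (7 higher, 3 lower). It was 0 with all named miRNA probes adjusted together, an alternative chosen after seeing the data. The cause was not tested. Plain subtraction and the deposited value table hold the same values within 0.001, so they amount to 1 setting. miR-34a fell short with no background correction (0.72), with plain subtraction and in the value table (1.68 each) and with all named probes (1.02). miR-422b did so in those settings (1.04, 2.27, 2.27 and 1.82), on the linear scale (425 intensity units) and with the trended robust prior (1.82). With replicate number as a block, 2 passed, miR-422b at limma adjusted p = 0.0258 and miR-34a at 0.0376; slide as a fixed block could not be fitted, and as a random block 2 passed. Leaving out each array gave 0 to 7 calls, 0.88 to 1.10 for miR-34a and 1.66 to 2.00 for miR-422b.

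Signs turned only for values that had not passed the threshold. miR-451 was 0.090 with no background correction. miR-210 was 0.15 with plain subtraction and in the value table, 0.029 with an offset of 20, 0.017 under median scaling, 0.025 with position on the slide, 0.10 with no normalization and 0.12 with the median of spots. miR-221 was 0.38, 0.33 and 0.46 under median scaling, cyclic loess and no normalization, 15.5 intensity units on the linear scale and 0.036 with array weights. With no normalization miR-107 was 0.032 and miR-26b 0.020. miR-126-5p was -0.027 with the median of spots, miR-208 -0.048 with array weights and miR-21 0.0098 with position. Leaving out an array gave ranges of -0.22 to 0.13 for miR-21, -0.30 to 0.15 for miR-221 -1.48 to 0.13 for miR-92, -0.018 to 0.57 for miR-30a-5p, -0.12 to 0.19 for miR-210 and -0.040 to 0.15 for miR-208.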
